A study of Homo sapiens with 24 samples.

Results

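The transcripts described here are those of REST, the repressor of neuronal genes, of its corepressors RCOR1 and RCOR2, and of neuronal genes known as REST targets. They were chosen as a list of 31 gene symbols, matched to the Ensembl identifiers of the count tables, which hold 60675 genes. RNA-seq had been performed in 24 libraries of 2 human kidney cell lines, 3 libraries in each of 8 groups. ACHN is a renal carcinoma line (labelled ccRCC) and HK2 is an immortalised kidney tubule line (labelled as human kidney). In each line the groups were a control hairpin (shNC), a hairpin against KDM5C (shKDM5C), a hairpin against YY1 (shYY1) and the double knockdown of both (Dsh). All cells, controls included, carried a lentiviral pLKO.1 hairpin vector and were selected pools, and Dsh was made from YY1-depleted cells by adding a KDM5C hairpin on a GFP-marked vector. Which of the hairpins made for each gene was sequenced is not given in the sources used here, and the labels do not say whether the 3 libraries of a group came from separate cultures, so that the p-values below measure the spread between libraries, which may be technical. Levels are given as CPM, the counts scaled to the size of each library with TMM factors for its composition, and as RPKM where genes are compared with each other, since RPKM also divides by gene length.

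REST is a zinc finger protein that binds the RE1 element beside many neuronal genes and holds them low in cells that are not neurons. It works through corepressors: RCOR1 (CoREST) and RCOR2 carry the histone demethylase KDM1A and histone deacetylases, and SIN3A carries deacetylases of its own. KDM5C, a demethylase of methylated lysine 4 of histone H3, has been found in REST complexes and is known to act on neuronal genes, while YY1 is a zinc finger factor that can activate or repress. The target genes make secretory granules, the machinery of synaptic vesicle release, neurofilaments, ion channels and neuronal surface proteins.

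The RE1 element itself could be read beside some of the members. A window of 5000 bases on either side of the annotated gene start was searched on both strands of GRCh38 for the RE1 consensus, a motif of 17 bases. It was found at 11 of 31 members (35.484%), against 1090 of 60467 genes on the main chromosomes (1.803%). The matches of the members that were measured in at least 1 line are shown because the changes of these genes are described below. The motif is in capitals, with 2 flanking bases in lower case, written 5′ to 3′ on the strand of the motif.
SCN2A: ttCTCAGCACCATGGACAGcg
INA: agATCAGCACCGTGGACAGcg
NEFH: gcTTCAGCACCGGGGACAGgg
SNAP25: ctTTCAGCACCGGGGACAGcg
GRIN1: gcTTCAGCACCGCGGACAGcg
SYN1: gcTTCAGCACCGCGGACAGtg
CHGB: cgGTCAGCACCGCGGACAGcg
BDNF: caTTCAGCACCTTGGACAGag

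All 10 member matches that were read, the 8 shown and those of CHGA and SYT4, held both conserved parts of the element, CAGCACC and GGACAG. The consensus that was searched allows few other letters in these parts, so this follows in large part from the search. The eleventh match lay beside STMN2. The SCN2A match lay at chr2:165238484-165238500, 910 bases before the gene start used in the count tables and in an intron by the GENCODE annotation. INA held its match at chr10:103279012-103279028, 1857 bases into the gene and on the opposite strand, in an intron. For NEFH the match was 1543 bases before the start, at chr22:29478679-29478695, outside the gene. The SNAP25 match at chr20:10219672-10219688 and the CHGB match at chr20:5911704-5911720 were intronic, 850 and 282 bases after the start. GRIN1 and BDNF held theirs in exonic untranslated sequence, at chr9:137139260-137139276 and chr11:27720680-27720696, 878 and 1370 bases after the start. The SYN1 match at chrX:47620074-47620090 lay 229 bases before the gene. Neither NEFL nor VGF, STMN3, CELSR3 or UNC13A held the consensus in the window, which says nothing of whether REST binds elsewhere.

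**Figure D1:**
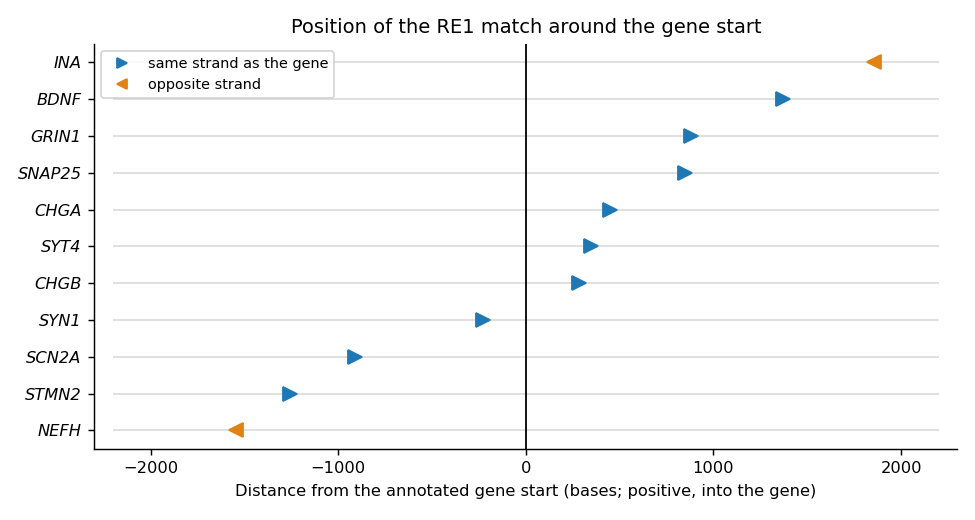
Distance in bases of each RE1 match from the annotated gene start (x axis) for the 11 members that held one (y axis), with the direction of the triangle giving the strand. Most matches lay on the gene's own strand, and those of NEFH and INA on the opposite strand, at -1543 and 1857 bases.

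The libraries held 15926561 to 24272298 counts. KDM5C and YY1 were lower in the groups labelled for them: KDM5C changed by -0.73 in ACHN shKDM5C, -0.80 in ACHN Dsh, -1.74 in HK2 shKDM5C and -1.49 in HK2 Dsh (log2), and YY1 by -0.88, -0.51, -1.70 and -1.49 in ACHN shYY1, ACHN Dsh, HK2 shYY1 and HK2 Dsh. KDM5C was higher in shYY1 of both lines, by 0.34 in ACHN and 0.35 in HK2. Replicate 1 of HK2 shKDM5C stood apart: its root mean square log2 difference from its 2 replicates was 0.977 and 0.988, against 0.39 to 0.543 in the other 22 replicate pairs. Of 24 measured members it was the lowest of its group for 13 and the highest for 8. Among kidney epithelial markers, 12 of 15 reached 1 CPM in shNC of each line, PAX8 among them, but LRP2, a defining protein of proximal tubule, was at 0 or 1 count in every library. Of 10 neuron markers, ELAVL4 and NEUROD1 were at 0 throughout. The summed neuron markers ran from 8.71 to 10.3 CPM in ACHN shNC, 11.7 to 13.2 in shKDM5C, 14.1 to 14.5 in shYY1 and 3.23 to 3.57 in Dsh, and from 6.46 to 12.7 CPM over the HK2 libraries. Of 3 neuron markers that could be tested in ACHN, 1 rose and 2 fell with shKDM5C (28.9% and 27.7% of all genes). With shYY1 1 rose and 1 fell (24.2% and 24.5%), and in Dsh 0 rose and 3 fell (30.7% and 32%), at an adjusted p under 0.05. RBFOX3 was the marker that rose in both single knockdowns. Of 13 kidney markers tested in ACHN, 5 rose and 6 fell with shKDM5C, and 6 and 6 with shYY1. In ACHN Dsh 4 rose and 8 fell, beside the same shares of all genes. Of 12 tested in HK2, 0 rose and 1 fell with shKDM5C (0.668% and 0.656% of all genes). There 4 rose and 6 fell with shYY1 (14.3% and 14.7%), and 4 and 7 in Dsh (25.5% and 24.3%). The part of the kidney and neuron markers in the results below was not tested.

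Without knockdown, the members ranged from absent to highly abundant. In ACHN shNC, 10 of 31 members reached 1 RPKM, and in HK2 shNC 14. The cell adhesion protein L1CAM led in ACHN, at 101 ± 1.51 RPKM (SD, n = 3), followed by STMN3, a microtubule regulator of the stathmin family, at 27.6 ± 1.03, and the secreted peptide precursor VGF at 14.4 ± 0.34. The ubiquitin hydrolase UCHL1 led in HK2, at 199 ± 1.47 RPKM, followed by L1CAM at 118 ± 2.61 and the heavy neurofilament protein NEFH at 38.3 ± 0.88. REST was the sixth member in this order in ACHN, at 7.77 ± 0.36 RPKM, and the eighth in HK2, at 8.78 ± 1.04. In ACHN the 7 members at the head of the order, down to CPLX1 at 5.01 ± 0.48, were each separated from the next by all libraries. In HK2 the same held for the first 5, down to RCOR1 at 14.1 ± 0.26, while the libraries of VGF and STMN3, and those of STMN3 and REST, overlapped.

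Members too low to measure were those that failed the filter on low counts in all 3 knockdown comparisons of a line. They were 12 of 31 in ACHN, with 0 to 11 counts in a library, and 7 in HK2, with 0 to 10. The granule proteins SCG2, SCG3 and CHGA, the vesicle protein SYT4, the stathmin STMN2, the fusion regulator CPLX2 and the glutamate receptor subunit GRIA2 were too low in both lines. SYN1, NEFH, UCHL1, GRIN1 and UNC13A were too low in ACHN alone. STMN2 had 0 counts in all 24 libraries, which allows a level of up to 0.0129 CPM over the ACHN libraries and 0.0145 CPM over those of HK2, counting error only. This left 19 measured members in ACHN and 24 in HK2.

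Comparing shNC of both lines, 7 of 24 tested members were higher in ACHN and 14 lower (adjusted p under 0.05, edgeR's quasi-likelihood F test, p-values adjusted by Benjamini-Hochberg over the genes tested), against 38.6% and 38% of the 16988 genes tested. Of the 19 members measured in both lines, 7 were higher and 9 lower. The widest gaps were in members that ACHN lacks. UCHL1 had 3 counts in all ACHN shNC libraries together and 25240 in those of HK2, a ratio of 8550 (95% exact counting interval 2925 to 41460). NEFH had 3 and 8058 counts, a ratio of 2730 (934 to 13240). UNC13A, which primes synaptic vesicles and was also too low to measure in ACHN, had 22 counts in its shNC libraries together. In those of HK2 it had 1714. The intermediate filament protein INA, measured in both lines, was lower in ACHN, with a log2 difference of -5.01 (adjusted p = 4.24e-26). The sodium channel SCN2A and the complexin CPLX1, a regulator of vesicle fusion, were higher in ACHN, by 2.11 and 2.37 (adjusted p = 9.37e-14 and 5.06e-12). REST differed little, with a log2 difference of -0.17 (adjusted p = 0.0194), and its libraries overlapped between the lines.

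**Figure D2:**
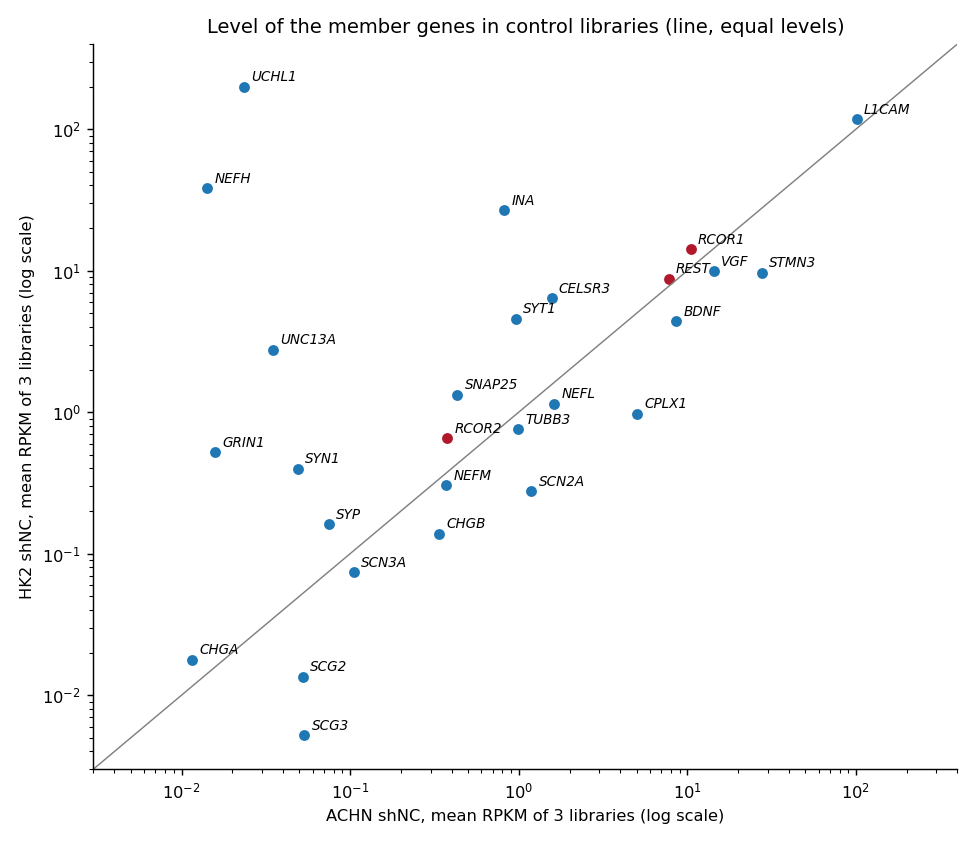
Mean level of the members in ACHN shNC (x axis) and HK2 shNC (y axis), both in RPKM on a log scale and each the mean of 3 libraries, with REST, RCOR1 and RCOR2 in red and the line marking equal levels. UCHL1, NEFH and INA lie far above the line, CPLX1 and SCN2A below it, and REST and RCOR1 close to it; 4 members with a mean of 0 in a line are not drawn.

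In ACHN, members changed in both directions in each knockdown. With shKDM5C, 4 of 19 members rose and 6 fell, against 28.9% and 27.7% of all genes tested, so that 52.6% of the members passed beside 56.6% of all genes. DESeq2 called 1 member higher there, and 8037 genes in all, where edgeR called 9154. Without shNC replicate 1 the count of higher members was 0. With shYY1, 4 rose and 9 fell (24.2% and 24.5% of all genes). In Dsh, 9 of 18 tested rose and 6 fell (30.7% and 32%). The median log2 change of the members was 0.085, -0.26 and 0.33 in the 3 comparisons, beside -0.0070, -0.0070 and -0.0060 over all genes. With a log2 change of at least 1.5 asked as well, 0 members passed with shKDM5C, where 0.667% of all genes were higher and 2.68% lower. With shYY1, INA, CHGB and CELSR3 passed as lower and 0 as higher (2.23% and 0.904% of all genes). In Dsh, NEFL, SCN2A and INA passed as higher and RCOR2 as lower (2.81% and 5.61%). The 3 comparisons of a line share its shNC libraries, so their values are set side by side below.

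In HK2, 0 of 24 members passed with shKDM5C, where 0.668% of all genes rose and 0.656% fell. At an unadjusted p under 0.05, 3 were lower (STMN3, UCHL1 and GRIN1) and 0 higher, but the share of all genes at that threshold was not computed. DESeq2 called 2 members lower and 0 higher, and 807 genes in all, where edgeR called 214. Without replicate 1 of that group, 1 rose and 3 fell (11.5% and 10.9% of all genes). With shYY1, 3 of 24 rose and 9 fell (14.3% and 14.7%). In Dsh, 4 of 23 rose and 8 fell (25.5% and 24.3%). With all 4 HK2 groups in the fit, the members that fell were 2 with shYY1 (CELSR3 and UNC13A) and 5 in Dsh, where RCOR1, STMN3 and L1CAM no longer passed. UCHL1, which had risen in Dsh, no longer passed either. The share of all genes was not computed for that fit. The median log2 change of the members was -0.056, -0.41 and -0.14, beside 0.0010, 0.0050 and -0.0030 over all genes. At a log2 change of at least 1.5, GRIN1, RCOR2 and NEFL passed as lower in Dsh and 0 as higher (1.84% and 2.45% of all genes). With shYY1 0 members passed (0.317% of all genes higher, 0.977% lower), as with shKDM5C (0.235% and 0.266%).

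**Figure D3:**
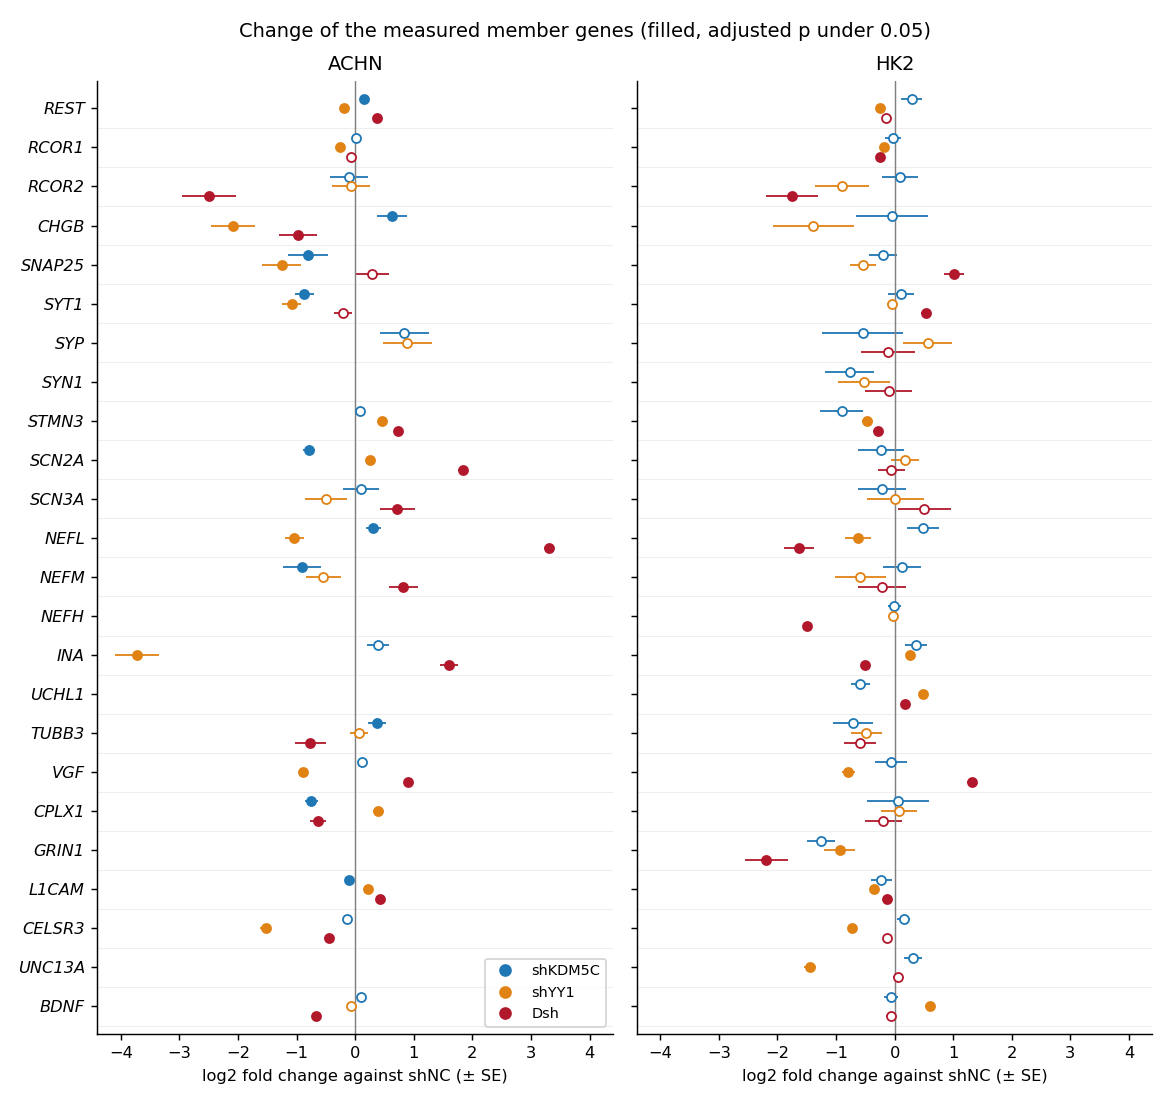
Log2 fold change of each measured member against shNC (x axis, ± SE) in ACHN (left) and HK2 (right), for shKDM5C in blue, shYY1 in orange and Dsh in red, with filled points for an adjusted p under 0.05. In ACHN the Dsh points of NEFL, SCN2A and INA lie far to the right and the shYY1 points of INA and CHGB far to the left, while in HK2 the Dsh points of GRIN1, RCOR2, NEFL and NEFH lie to the left and those of VGF and SNAP25 to the right.

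REST itself changed by small amounts, and in opposite directions in the ACHN groups. In ACHN it was at 58.8, 62.1 and 64.4 CPM in shNC, 66.8, 68.8 and 71.99 in shKDM5C, 52.5, 57.3 and 55.4 in shYY1, and 75.6, 85.6 and 77.6 in Dsh. It rose in Dsh by 0.37 on the log2 scale (SE 0.059, adjusted p = 2.31e-05) and fell with shYY1 (log2 change -0.19, SE 0.049, adjusted p = 0.00188), and the libraries of those groups did not overlap with shNC. Its rise of 0.15 (SE 0.048, adjusted p = 0.00984) with shKDM5C rested on single libraries: without shNC replicate 1 the adjusted p was 0.0692, without shKDM5C replicate 3 it was 0.0614, and with scaling to total counts 0.067. In HK2, REST was at 60.8, 77.04 and 71.6 CPM in shNC, 103, 73.7 and 75.9 in shKDM5C, 53.5, 63.6 and 59.6 in shYY1, and 59.5, 60.7 and 67.1 in Dsh. Here the highest library was replicate 1 of shKDM5C, and the groups overlapped. The change of -0.25 (SE 0.080, adjusted p = 0.0225) with shYY1 passed with all libraries but not without shNC replicate 2 (adjusted p = 0.165), and that of -0.15 (SE 0.072, adjusted p = 0.07898) in Dsh did not pass.

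The corepressors changed little or were barely expressed. RCOR1, which bridges REST and KDM1A, was at 62.2, 65.6 and 66.7 CPM in shNC, 68.1, 64.8 and 64.8 in shKDM5C, 55.7, 53.2 and 56.4 in shYY1, and 59.1, 64.8 and 61.3 in Dsh in ACHN. It fell with shYY1 (-0.26, SE 0.047, adjusted p = 2.45e-05), with no overlap between the groups. In HK2, RCOR1 was at 86.8, 86.4 and 89.4 CPM in shNC, 95.8, 75.5 and 81.7 in shKDM5C, 77.2, 79.3 and 74.9 in shYY1, and 70.8, 75.8 and 71.7 in Dsh. Both groups were lower, with shYY1 (log2 change -0.18, SE 0.057, adjusted p = 0.0174) and in Dsh (log2 change -0.26, SE 0.056, adjusted p = 0.000278). The HK2 shYY1 call was lost without shNC replicate 3 (adjusted p = 0.0809) and without shYY1 replicate 3 (0.0638), and with all 4 groups in the fit the adjusted p of RCOR1 was 0.38 for shYY1 and 0.0836 for Dsh. RCOR2, a paralog of RCOR1, was at 0.988, 0.967 and 1.13 CPM in shNC, 0.5904, 1.23 and 1.08 in shKDM5C, 0.742, 1.29 and 0.946 in shYY1, and 0.256, 0.1103 and 0.162 in Dsh in ACHN. These are 18 to 21 counts in an shNC library and 2 to 5 in Dsh, a log2 change of -2.495 (SE 0.46, adjusted p = 0.000107), and the groups did not overlap. In HK2, RCOR2 stood at 1.93, 1.44 and 2.01 CPM in shNC, 1.37, 2.35 and 1.91 in shKDM5C, 1.37, 0.178 and 1.33 in shYY1, and 0.294, 0.875 and 0.397 in Dsh. It fell in Dsh there too (log2 change -1.76, SE 0.44, adjusted p = 0.00137). RCOR2 was the only member that passed as lower in Dsh of both lines.

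Of the genes for granule and secreted proteins, VGF moved the same way in both lines: lower with shYY1, higher in Dsh. In ACHN it was at 38.9, 39.9 and 38 CPM in shNC, 47.1, 40.5 and 40.7 in shKDM5C, 20.9, 21.7 and 21.3 in shYY1, and 68.4, 75.6 and 73.2 in Dsh. With shYY1 the change was -0.89 (SE 0.059, adjusted p = 1.16e-14) and in Dsh 0.90 (SE 0.059, adjusted p = 1.67e-10), and the 3 Dsh libraries were all above, the 3 shYY1 libraries all below those of shNC. In HK2, VGF was at 30.4, 23.6 and 26.2 CPM in shNC, 14.7, 30.7 and 30.6 in shKDM5C, 16.2, 15.8 and 14.4 in shYY1, and 69.3, 67.5 and 61.7 in Dsh. The change was -0.79 (SE 0.11, adjusted p = 7.28e-06) with shYY1 and 1.32 (SE 0.080, adjusted p = 9.08e-15) in Dsh. With shKDM5C it did not pass in either line, and replicate 1 of HK2 shKDM5C lay far below its replicates. VGF was the only member higher in Dsh of both lines.

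CHGB, a granule protein of the chromogranin family with an RE1 match, was low in ACHN, at 1.09, 1.56 and 1.93 CPM in shNC, 2.63, 2.57 and 1.95 in shKDM5C, 0.318, 0.429 and 0.334 in shYY1, and 0.8202, 0.662 and 0.812 in Dsh. It fell with shYY1 (-2.08, SE 0.37, adjusted p = 1.61e-05, 6 to 8 counts in a library) and in Dsh (-0.98, SE 0.33, adjusted p = 0.0143), though the Dsh change was -0.78 and did not pass without shNC replicate 3 (adjusted p = 0.104). Its higher level with shKDM5C, 0.63 (SE 0.25, adjusted p = 0.0346), did not pass by DESeq2 (adjusted p = 0.0837) or without shNC replicate 1. In HK2, CHGB had 1 to 21 counts in a library and did not pass. The neurotrophin BDNF was at 64.6, 66.3 and 68.1 CPM in shNC, 73.9, 70.4 and 70.2 in shKDM5C, 71.7, 61.2 and 60.1 in shYY1, and 43.7, 38.6 and 41.7 in Dsh in ACHN. It fell in Dsh alone (log2 change -0.68, SE 0.060, adjusted p = 1.22e-08), and its Dsh libraries were below all others. BDNF overlaps an antisense gene over 9.06% of its exonic bases, and counting did not use strand. In HK2, BDNF was at 32.7, 34.7 and 34.7 CPM in shNC, 32.5, 30.9 and 32.8 in shKDM5C, 44.1, 53.3 and 57.8 in shYY1, and 33.3, 29.9 and 33.9 in Dsh. There it rose with shYY1 by 0.60 (SE 0.086, adjusted p = 1.18e-05), and the change in Dsh was -0.065 (SE 0.080, adjusted p = 0.5303).

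Of 8 genes of synaptic vesicle release, 4 were tested in the single knockdowns of ACHN and 3 in Dsh. With shKDM5C 0 rose and 3 fell (28.9% and 27.7% of all genes). With shYY1 1 rose and 2 fell (24.2% and 24.5%), and in Dsh 0 rose and 1 fell (30.7% and 32%). SNAP25, a SNARE protein of vesicle fusion with an RE1 match, was at 1.61, 1.72 and 1.02 CPM in shNC, 1.02, 1.06 and 0.434 in shKDM5C, 0.636, 0.429 and 0.779 in shYY1, and 1.54, 1.71 and 2.03 in Dsh in ACHN. Levels were lower with shYY1 (log2 change -1.26, SE 0.34, adjusted p = 0.00237) and with shKDM5C (-0.81, SE 0.34, adjusted p = 0.04398), where the shKDM5C libraries overlapped with shNC and DESeq2 gave an adjusted p of 0.0994. In Dsh the ACHN change was 0.29 (SE 0.28, adjusted p = 0.386). In HK2, SNAP25 was at 4.91, 3.55 and 4.9 CPM in shNC, 2.88, 4.34 and 4.25 in shKDM5C, 3.21, 3.21 and 2.77 in shYY1, and 9.23, 8.69 and 8.97 in Dsh. The Dsh libraries were all above the others, with a rise of 1.02 (SE 0.17, adjusted p = 9.50e-06). The calcium sensor of vesicle fusion, SYT1, was at 5.67, 6.23 and 6.77 CPM in shNC, 3.06, 4.41 and 2.88 in shKDM5C, 2.598, 2.79 and 3.56 in shYY1, and 5.33, 6.45 and 4.51 in Dsh in ACHN. It fell in both single knockdowns, with log2 changes of -0.87 (SE 0.17, adjusted p = 7.83e-05) with shKDM5C and -1.08 (SE 0.16, adjusted p = 8.72e-07) with shYY1, whereas its Dsh libraries overlapped with shNC, with a change of -0.20 (SE 0.16, adjusted p = 0.269). In HK2, SYT1 was at 29.9, 28.8 and 30.7 CPM in shNC, 41.5, 28.7 and 24.2 in shKDM5C, 29.9, 29.1 and 27.5 in shYY1, and 41.5, 47.5 and 39.8 in Dsh. It rose in Dsh by 0.54 (SE 0.080, adjusted p = 1.41e-06).

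CPLX1 was at 12.01, 11.01 and 13.3 CPM in shNC, 7.51, 6.75 and 7.595 in shKDM5C, 17.2, 15.1 and 16.1 in shYY1, and 6.1, 9.21 and 7.999 in Dsh in ACHN. It fell with shKDM5C (-0.75, SE 0.11, adjusted p = 2.58e-06) and in Dsh (-0.64, SE 0.14, adjusted p = 0.000464) and rose with shYY1 (0.39, SE 0.091, adjusted p = 0.000503), with no overlap with shNC in any of the 3. In HK2, with 12 to 67 counts in a library, CPLX1 did not pass. UNC13A was measured in HK2, at 29.9, 32.6 and 30.2 CPM in shNC, 43.95, 35.2 and 34.7 in shKDM5C, 12.7, 10.9 and 10.4 in shYY1, and 32.2, 30.9 and 32.2 in Dsh. All 3 shYY1 libraries were below the rest, with a log2 change of -1.45 (SE 0.10, adjusted p = 7.01e-10), and in Dsh it was back among the shNC libraries, at 0.050 (SE 0.080, adjusted p = 0.638). The vesicle membrane protein SYP and the vesicle phosphoprotein SYN1 had at most 30 counts in a library and did not pass in any knockdown comparison.

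The neurofilament and microtubule genes changed in both directions. NEFL, the light neurofilament protein, was at 5.82, 7.47 and 7.79 CPM in shNC, 8.96, 8.65 and 8.73 in shKDM5C, 4.19, 3.43 and 2.73 in shYY1, and 68.8, 72.3 and 67.7 in Dsh in ACHN. In Dsh it rose by 3.31 (SE 0.088, adjusted p = 4.42e-16), from 112 to 145 counts in the shNC libraries to 1311 to 1668. With shYY1 alone it fell (log2 change -1.04, SE 0.16, adjusted p = 1.70e-06), and all 3 shYY1 libraries were below those of shNC. The shift of 0.31 (SE 0.12, adjusted p = 0.0358) with shKDM5C did not pass by DESeq2 (adjusted p = 0.0887), with scaling to total counts (0.0718) or without shNC replicate 1. In HK2, NEFL was at 5.95, 5.16 and 3.77 CPM in shNC, 8.69, 5.34 and 6.59 in shKDM5C, 2.55, 3.33 and 3.75 in shYY1, and 1.53, 1.93 and 1.31 in Dsh. There it fell in Dsh (log2 change -1.63, SE 0.26, adjusted p = 4.26e-06), and its 3 Dsh libraries were the lowest of the line. With shYY1 the HK2 change was -0.62 (SE 0.23, adjusted p = 0.04097), which DESeq2 did not call (adjusted p = 0.059).

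INA, a neurofilament partner with an RE1 match, was at 3.02, 2.203 and 2.74 CPM in shNC, 3.596, 3.403 and 3.53 in shKDM5C, 0.265, 0.215 and 0.111 in shYY1, and 7.79, 8.55 and 7.84 in Dsh in ACHN. With shYY1 it was nearly lost, at 2 to 5 counts against 41 to 58 in shNC, a log2 change of -3.72 (SE 0.37, adjusted p = 2.44e-10). In Dsh it was above every other ACHN library, a rise of 1.60 (SE 0.16, adjusted p = 6.05e-08). In HK2, where INA was far more abundant, it was at 92.04, 84.03 and 82.2 CPM in shNC, 138, 96.99 and 90.97 in shKDM5C, 102, 105 and 102 in shYY1, and 57.4, 58.8 and 63.8 in Dsh. It rose slightly with shYY1 (0.26, SE 0.058, adjusted p = 0.00151) and fell in Dsh (-0.51, SE 0.061, adjusted p = 3.05e-08). NEFH, also with an RE1 match, was at 141, 146 and 148 CPM in shNC, 148, 147 and 133 in shKDM5C, 147, 144 and 134 in shYY1, and 47.3, 49.2 and 56.3 in Dsh in HK2. The shNC, shKDM5C and shYY1 libraries overlapped, whereas the Dsh libraries were far below, with a log2 change of -1.499 (SE 0.059, adjusted p = 2.73e-19). ACHN held 0 to 4 NEFH counts in a library.

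NEFM, the medium neurofilament protein, was low in ACHN, at 1.77, 1.18 and 1.93 CPM in shNC, 0.537, 0.725 and 1.36 in shKDM5C, 1.22, 1.34 and 0.835 in shYY1, and 2.36, 3.47 and 2.801 in Dsh. It passed as lower with shKDM5C (-0.91, SE 0.33, adjusted p = 0.0215), where groups overlapped, and as higher in Dsh (0.82, SE 0.25, adjusted p = 0.00805). The shKDM5C call was lost by DESeq2 (adjusted p = 0.0513) and on leaving out either of 2 shNC libraries (replicates 1 and 3) or 2 shKDM5C libraries (replicates 1 and 2), with log2 changes of -1.38 to -0.65 over the removals, and the Dsh call was lost without shNC replicate 2 (adjusted p = 0.056). An antisense gene with 410 counts over all libraries covers 38.9% of the NEFM exons, against 634 counts for NEFM, so its values are uncertain. In HK2 it did not pass. STMN3 was at 80.9, 83.2 and 87.02 CPM in shNC, 92.8, 90.9 and 85.1 in shKDM5C, 121, 117 and 113 in shYY1, and 142, 131 and 144 in Dsh in ACHN. It rose with shYY1 by 0.46 (SE 0.039, adjusted p = 5.62e-12) and in Dsh by 0.73 (SE 0.051, adjusted p = 4.26e-10), and both groups lay above shNC. In HK2, STMN3 was at 31.5, 28.8 and 27.7 CPM in shNC, 6.57, 20.1 and 19.9 in shKDM5C, 21.98, 23.1 and 18.7 in shYY1, and 24.3, 24.9 and 22.5 in Dsh. The change was -0.46 (SE 0.10, adjusted p = 0.000936) with shYY1 and in Dsh -0.29 (SE 0.089, adjusted p = 0.00811), though the Dsh change did not pass without shNC replicate 1 (adjusted p = 0.06). TUBB3, the neuronal beta tubulin, shares 35.8% of its exonic bases with a readthrough gene, and reads there were dropped. Its level in ACHN was 4.58, 4.57 and 4.03 CPM in shNC, 6.33, 4.58 and 6.35 in shKDM5C, 4.98, 4.78 and 4.18 in shYY1, and 2.41, 1.27 and 3.82 in Dsh. It fell in Dsh (log2 change -0.77, SE 0.26, adjusted p = 0.0153), but the change was -0.46 and did not pass without Dsh replicate 2 (adjusted p = 0.0623), and it was -1.23 without Dsh replicate 3. Its rise of 0.38 (SE 0.16, adjusted p = 0.0435) with shKDM5C had overlapping groups and did not pass by DESeq2 (adjusted p = 0.099). In HK2, TUBB3 did not pass.

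**Figure D4:**
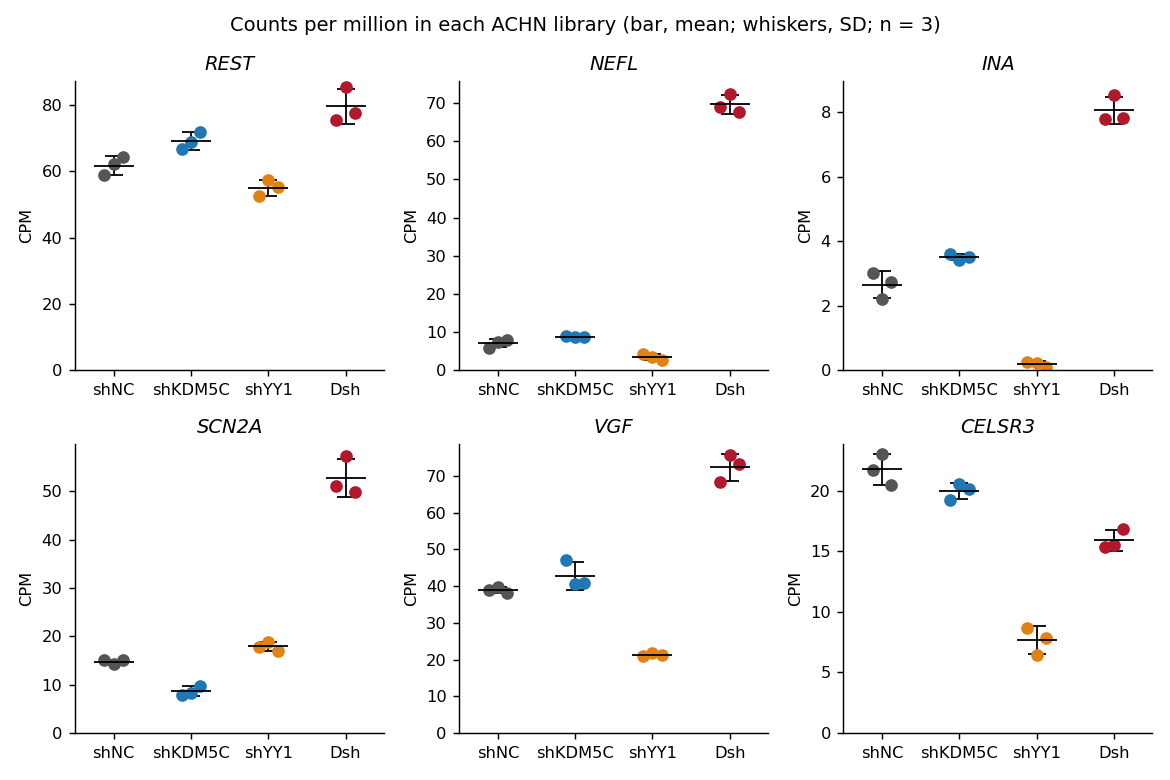
Level in CPM (y axis) of REST, NEFL, INA, SCN2A, VGF and CELSR3 in each ACHN library, by group (x axis), with points for libraries, bars for means and whiskers for SD (n = 3). NEFL, INA, SCN2A and VGF are highest in all 3 Dsh libraries, and INA, NEFL, VGF and CELSR3 are lowest in all 3 shYY1 libraries.

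Among channels and receptors, SCN2A, the alpha subunit of a neuronal sodium channel, was at 15.03, 14.3 and 15 CPM in shNC, 7.89, 8.202 and 9.77 in shKDM5C, 17.9, 18.9 and 17.03 in shYY1, and 51.1, 57.3 and 49.9 in Dsh in ACHN. It fell with shKDM5C (log2 change -0.79, SE 0.10, adjusted p = 3.16e-07), rose with shYY1 by 0.26 (SE 0.080, adjusted p = 0.00803) and rose in Dsh by 1.84 (SE 0.077, adjusted p = 2.77e-13). None of these groups overlapped with shNC, and Dsh lay far above the rest. In HK2, with 30 to 90 counts in a library, SCN2A did not pass. Its paralog SCN3A was at 0.78, 1.07 and 1.24 CPM in shNC, 1.13, 0.948 and 1.25 in shKDM5C, 0.954, 0.859 and 0.3897 in shYY1, and 1.85, 1.38 and 1.83 in Dsh in ACHN. Its Dsh change of 0.72 (SE 0.30, adjusted p = 0.0451) did not pass by DESeq2 (adjusted p = 0.0919) or without the filter on low counts (0.0702). GRIN1, the obligate subunit of NMDA receptors with an RE1 match, was measured in HK2, at 3.75, 3.55 and 3.198 CPM in shNC, 1.23, 1.52 and 1.58 in shKDM5C, 2.26, 1.37 and 1.85 in shYY1, and 1.23, 0.817 and 0.227 in Dsh. All 9 knockdown libraries were below the 3 of shNC. It fell with shYY1 (log2 change -0.94, SE 0.27, adjusted p = 0.0103) and in Dsh (-2.19, SE 0.37, adjusted p = 8.97e-06). With shKDM5C the change was -1.25 (SE 0.24, adjusted p = 0.0626) with all libraries and -1.18 (SE 0.29, adjusted p = 0.00369) without replicate 1.

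The surface protein L1CAM, abundant in both lines, was at 753, 759.9 and 738 CPM in shNC, 698, 712 and 710.2 in shKDM5C, 866, 904 and 896 in shYY1, and 983, 967 and 1059 in Dsh in ACHN. The change was small in each knockdown but outside the spread of the libraries: -0.10 (SE 0.027, adjusted p = 0.00254) with shKDM5C, 0.22 (SE 0.025, adjusted p = 5.28e-09) with shYY1 and 0.42 (SE 0.043, adjusted p = 8.40e-08) in Dsh. In HK2, L1CAM was at 897, 863 and 864 CPM in shNC, 522, 855 and 843 in shKDM5C, 749, 669.7 and 645 in shYY1, and 779, 775 and 816 in Dsh. There it fell, with shYY1 (-0.35, SE 0.049, adjusted p = 1.04e-05) and in Dsh (-0.14, SE 0.037, adjusted p = 0.00268). Replicate 1 of HK2 shKDM5C, at 522 CPM, was lower than any other library.

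CELSR3, an adhesion receptor of axon guidance, was at 21.7, 23.05 and 20.5 CPM in shNC, 19.3, 20.6 and 20.1 in shKDM5C, 8.695, 6.44 and 7.85 in shYY1, and 15.3, 15.5 and 16.9 in Dsh in ACHN. It fell with shYY1 (log2 change -1.53, SE 0.10, adjusted p = 2.86e-15) and in Dsh (log2 change -0.45, SE 0.086, adjusted p = 0.000182). In HK2, CELSR3 was at 89.2, 89.8 and 85.8 CPM in shNC, 87.8, 102 and 101 in shKDM5C, 60.9, 49.97 and 49.95 in shYY1, and 75.6, 86.3 and 78.03 in Dsh. The shYY1 libraries were again the lowest (log2 change -0.72, SE 0.071, adjusted p = 8.09e-08), and without replicate 1 it rose with shKDM5C by 0.20 (SE 0.054, adjusted p = 0.00814). UCHL1, a marker of neurons that HK2 expresses strongly, was at 451, 458 and 454 CPM in shNC, 225, 342 and 334 in shKDM5C, 639, 600.0 and 670.4 in shYY1, and 515, 485 and 534 in Dsh there. It rose with shYY1 by 0.49 (SE 0.046, adjusted p = 4.16e-08) and in Dsh by 0.18 (SE 0.041, adjusted p = 0.000448), though the Dsh call was lost with all 4 groups in the fit (adjusted p = 0.361). With shKDM5C all 3 libraries were below those of shNC, at -0.59 (SE 0.16, adjusted p = 0.163), and at -0.43 (SE 0.038, adjusted p = 4.10e-09) without replicate 1. HK2 STMN3 fell with shKDM5C without that library (log2 change -0.55, SE 0.10, adjusted p = 0.000149), and at -0.90 (SE 0.37, adjusted p = 0.311) with it the change did not pass.

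**Figure D5:**
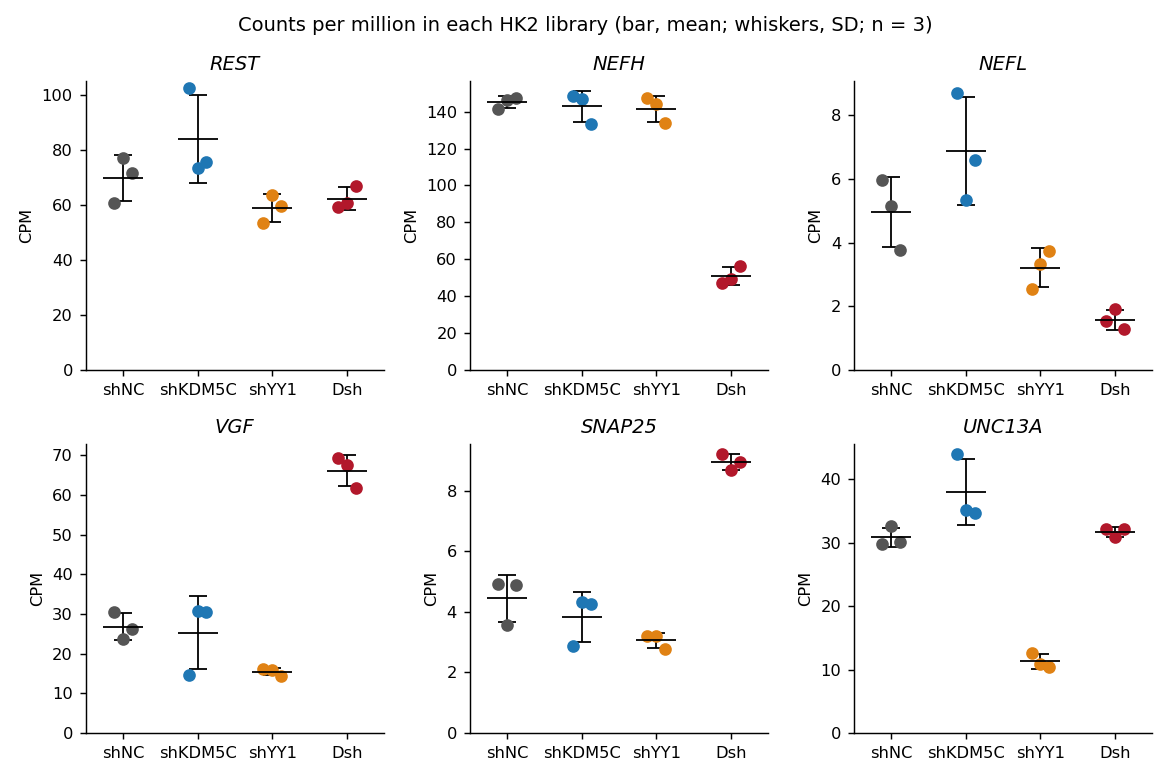
Level in CPM (y axis) of REST, NEFH, NEFL, VGF, SNAP25 and UNC13A in each HK2 library, by group (x axis), with points for libraries, bars for means and whiskers for SD (n = 3). NEFH and NEFL are lowest in the Dsh libraries, VGF and SNAP25 are highest there, and UNC13A is low in shYY1 alone, while replicate 1 of shKDM5C lies away from its replicates in most panels.

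Whether Dsh differed from the sum of both single knockdowns on the log2 scale was tested across the 12 libraries of each line. The sum assumes the same depth of knockdown in Dsh and in the single groups. YY1 fell less in ACHN Dsh than with shYY1, and KDM5C was higher with shYY1. Of these 2 target genes, 1 was above the sum in ACHN and 1 below. The part of this in the values that follow was not tested. In ACHN, 12 of 19 members were above that sum and 4 below, against 26.8% and 28.8% of 17228 genes. The widest excesses were in neurofilament genes: INA lay 4.91 log2 units (SE 0.34, adjusted p = 5.62e-12) above the sum, and NEFL 4.02 (SE 0.16, adjusted p = 1.59e-16). The size for INA rests in large part on its shYY1 libraries, with 2 to 5 counts each. SCN2A followed with 2.35 (SE 0.12, adjusted p = 2.08e-14) and SNAP25 with 2.32 (SE 0.49, adjusted p = 0.000237). NEFM, SYT1, VGF and CELSR3 were also above, by 2.24, 1.72, 1.64 and 1.19, as was REST, by 0.38 (SE 0.077, adjusted p = 0.000151). Below the sum were RCOR2 (-2.34, with 2 to 5 counts in a Dsh library), SYP (-2.07, with 2 to 17 counts in a library), TUBB3 (-1.22) and BDNF (-0.73, SE 0.086, adjusted p = 7.68e-08). SYP passed the filter on low counts with each single knockdown but not in Dsh against shNC. The groups that let it through are those subtracted, so its place among the 4 below cannot be read as a result. The median over the members was 0.45, and 0.012 over all genes.

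In HK2, 3 of 24 members were above the sum and 4 below (5.21% and 4.4% of all genes). VGF was 2.17 (SE 0.30, adjusted p = 0.000883) above, SNAP25 1.75 (SE 0.27, adjusted p = 0.00177) and UNC13A 1.18 (SE 0.18, adjusted p = 0.00152). Below it were NEFH (log2 difference -1.46, SE 0.13, adjusted p = 6.06e-05), NEFL (-1.495, SE 0.37, adjusted p = 0.0253), INA (-1.13, SE 0.20, adjusted p = 0.00434) and BDNF (-0.60, SE 0.16, adjusted p = 0.0345). Without replicate 1 of shKDM5C, 7 were above and 4 below (15% and 13.7% of all genes), with SYT1, STMN3, L1CAM and CELSR3 added above. REST was not called in HK2, at -0.20 (SE 0.21, adjusted p = 0.601).

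The effects of the same knockdown were then compared between the lines. For Dsh, the effect in ACHN was higher than that in HK2 for 7 of the 19 members measured in both lines and lower for 4 (23.3% and 22.7% of all genes). NEFL led, with a difference of 4.96 (SE 0.22, adjusted p = 7.11e-17), from its rise in ACHN and its fall in HK2. INA and STMN3 also rose in ACHN and fell in HK2, with differences of 2.13 (SE 0.15, adjusted p = 1.02e-12) and 1.04 (SE 0.091, adjusted p = 1.29e-10), and L1CAM with 0.58 (SE 0.057, adjusted p = 1.40e-09). SCN2A differed by 1.91 (SE 0.18, adjusted p = 7.16e-10), REST by 0.54 (SE 0.10, adjusted p = 5.69e-05) and RCOR1 by 0.21 (SE 0.078, adjusted p = 0.0291). The fall of NEFH in HK2 could not be compared with ACHN, where it had 0 to 4 counts in a library. BDNF (-0.59, SE 0.10, adjusted p = 8.08e-06), SYT1 (-0.73, SE 0.17, adjusted p = 0.000599), VGF (-0.40, SE 0.10, adjusted p = 0.002199) and CELSR3 (-0.29, SE 0.10, adjusted p = 0.0165) had a lower Dsh effect in ACHN than in HK2.

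Of 17 members tested in Dsh of both lines, 6 passed in each: VGF as higher and RCOR2 as lower in both, and NEFL, INA, STMN3 and L1CAM as higher in ACHN and lower in HK2. The HK2 Dsh calls of STMN3 and L1CAM were lost with all 4 groups in the fit (adjusted p = 0.509 and 0.523). Over all genes tested in Dsh of both lines, 37% passed in both, 13% as higher, 12.7% as lower and 11.2% in opposite directions. With shYY1, 8 of 19 passed in both lines (18.5% of all genes), and 5 of these (REST, RCOR1, NEFL, VGF and CELSR3) fell in each (5.37% of all genes). The HK2 calls of REST, RCOR1 and NEFL were lost when single libraries were left out, with adjusted p up to 0.165, 0.0809 and 0.202, and these 3 and VGF were lost with all 4 groups in the fit. STMN3 and L1CAM rose in ACHN and fell in HK2, and INA the other way. The HK2 calls of STMN3, L1CAM and INA were also lost with all 4 groups in the fit (adjusted p = 0.428, 0.204 and 0.380). The shYY1 effects were not tested against each other. For shKDM5C, 0 of 24 members, 19 of them measured in both lines, differed between the lines (5.74% and 6.18% of all genes). At an unadjusted p under 0.05, 2 were higher and 2 lower, with no share of all genes computed at that threshold. DESeq2 called 1 member in each direction, and 3101 genes in all, where edgeR called 2140. Without replicate 1 of HK2 shKDM5C, 2 were higher and 3 lower (18.6% and 15.4% of all genes), among them STMN3 (0.64, SE 0.092, adjusted p = 1.54e-06) and CPLX1 (-1.19, SE 0.29, adjusted p = 0.00165).

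Members with an RE1 match moved in both directions. In ACHN Dsh, where 30.7% of all genes rose and 32% fell, 5 of the 11 were tested, and SCN2A and INA rose while CHGB and BDNF fell. Of those without a match, 13 were tested, and 7 rose and 4 fell. These include the 3 genes REST, RCOR1 and RCOR2, which are not target genes and of which 1 rose and 1 fell. In HK2 Dsh, where 25.5% of all genes rose and 24.3% fell, 7 with a match were tested, of which SNAP25 rose and NEFH, INA and GRIN1 fell. Among 16 without one 3 rose and 5 fell, and REST and its corepressors made up 0 of these rises and 2 of these falls. In the RefSeq promoter windows of GRCh38, from 250 bases before to 50 after the start, 30 members had an entry. The YY1 core letters GCCATNTT, on either strand, were in 2 of them, CELSR3 and UNC13A, and in 6.58% of 35116 promoters. The RE1 consensus was in those of SYN1 and GRIA2 and in 0.068% of all promoters, its left part CAGCACC in 7 and 7.75%, and its right part GGACAG in 12 and 20.5%, where both parts overlap the full consensus. GRIA2 is not among the 11 members with a match, which were searched around the outermost gene start in the count tables. Which members count as having a match therefore depends on the start used.

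Other genes of the pathway were taken from lists made by known function. Of 19 further corepressors and regulators of REST, 18 were tested in each comparison: 7 rose and 6 fell with ACHN shKDM5C (28.9% and 27.7% of all genes), 5 and 4 with ACHN shYY1 (24.2% and 24.5%), and 7 and 5 in ACHN Dsh (30.7% and 32%). In HK2 the counts were 0 and 0 with shKDM5C (0.668% and 0.656%), 2 and 1 with shYY1 (14.3% and 14.7%), and 5 and 6 in Dsh (25.5% and 24.3%). CTDSP1, a phosphatase that acts on REST, changed by -0.79 (SE 0.074, adjusted p = 2.89e-08) in ACHN Dsh. SIN3B, a deacetylase scaffold, was higher in Dsh of both lines, by 0.39 (adjusted p = 1.29e-06) in ACHN and 0.55 (adjusted p = 8.59e-10) in HK2. PHF21A, a reader of unmethylated histone H3 in the KDM1A complex, was higher as well, by 0.35 (adjusted p = 0.000109) and 0.59 (adjusted p = 2.25e-06). BTRC, of the ubiquitin ligase that degrades REST, rose by 0.53 in HK2 Dsh (adjusted p = 2.45e-06), and USP7, which removes ubiquitin from REST, fell (log2 change -0.44, adjusted p = 3.16e-08). RCOR3 in ACHN Dsh changed by -0.38 (adjusted p = 5.73e-06).

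A list of 19 further genes with a described RE1 element was mostly silent, with 7 or 8 tested in a comparison. In ACHN 1 rose and 3 fell with shKDM5C, 2 and 2 with shYY1, and 3 and 4 in Dsh. In HK2 0 passed with shKDM5C, 0 rose and 1 fell with shYY1, and 1 rose and 4 fell in Dsh. The shares of all genes are those given for the corepressors. The falls in ACHN Dsh included NPPB, SLC12A5 and PTPRN, all under 5 CPM. NPPB, a natriuretic peptide, had 26 to 31 counts in an ACHN shNC library and 0 in the shYY1 and Dsh libraries. The potassium channel KCNN4 was higher in Dsh of both lines, at 8.23 ± 0.97 CPM in shNC and 12.4 ± 1.86 in Dsh of ACHN (log2 change 0.60, adjusted p = 0.000464), and at 10.0 ± 0.89 and 29.2 ± 3.60 in HK2 (1.55, adjusted p = 5.14e-13). The scaffold protein MAPK8IP1 was lower in both, with log2 changes of -0.80 (adjusted p = 4.48e-05) and -0.55 (adjusted p = 0.00719). GAD1, which makes GABA, rose in ACHN Dsh by 0.56 (adjusted p = 2.72e-05). The muscarinic receptor CHRM4 and the chloride transporter SLC12A5 fell in HK2 Dsh, with log2 changes of -0.67 and -0.45 (adjusted p = 0.00681 and 0.0460).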

How the data were processed

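RNA was extracted with TRIzol and libraries were built with a NEBNext Ultra kit. According to the study's methods and labels, the authors aligned paired-end reads to hg38 with HISAT2 2.0.5 and counted them per Ensembl gene (release 84 per the file headers) with featureCounts. The labels name version 1.5.0-p3 and the file headers version 2.0.1. The deposited values are raw read counts per gene, 1 table for each of 24 libraries, counted without strand, and reads in exons of overlapping genes were dropped, so overlapped members are understated.

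From these counts, edgeR 4.0.16 in R 4.3.3 was run with TMM scaling, filterByExpr and the quasi-likelihood F test on the 2 groups compared (4 groups for the tests of non-additive and line differences), p-values adjusted by Benjamini-Hochberg over every gene that passed the filter, and a threshold of 0.05. The standard error is the absolute log2 fold change divided by the square root of F. A permutation test of 3 against 3 cannot go below p = 0.1. DESeq2 1.42.0, other scalings and filters, and the removal of each library were alternatives. The test was checked on simulated counts. Symbols were found for 56558 of 60675 gene identifiers, and the 4117 without one held 0.243% of the counts and stayed in the fits. Members named in full reached 1 CPM in the mean of a group of the line and passed in at least 1 of its knockdown comparisons, and from other lists at most 4 genes per line were named, by the size of the change in Dsh among genes that passed and whose mean reached 5 CPM in shNC or Dsh. NPPB, SLC12A5 and PTPRN in ACHN, below that level, were named after their values were seen. The members and lists were chosen with earlier results of these data known. RE1 letters were read from GRCh38, promoters from RefSeq.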

Additional observations from a re-analysis of the deposited data

Results flagged for a closer look

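For 11 of the 19 members measured in both lines, the Dsh effect was not the same in ACHN and HK2, by a test of the difference itself across both lines (edgeR, adjusted p under 0.05). Of all 18087 genes tested, 46% passed the same test. Values are the log2 effect in ACHN minus that in HK2. NEFL differed by 4.958 (adjusted p = 7.11e-17), INA by 2.128 (adjusted p = 1.02e-12), STMN3 by 1.04 (adjusted p = 1.29e-10) and L1CAM by 0.578 (adjusted p = 1.40e-09), each higher than control in 3 of 3 ACHN libraries and lower in 3 of 3 HK2 libraries. SCN2A differed by 1.914 and REST by 0.539, both higher than control in ACHN alone. RCOR1 differed by 0.208. The effect was lower in ACHN for SYT1, at -0.727, BDNF, at -0.594, VGF, at -0.399 although it was higher than control in both lines, and CELSR3, at -0.294. What these differences come from was not tested.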

How the results depend on the processing

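The 62 called changes of members kept their direction in each of 496 alternative values and 372 values without 1 library; 27 and 39 of these no longer passed the threshold, and 40 changes passed throughout. With the threshold of the study (unadjusted p under 0.05 and a log2 change of at least 1.5) the members higher and lower were 0 and 0 in ACHN shKDM5C, 0 and 3 in ACHN shYY1, 3 and 1 in ACHN Dsh, 0 and 0 in HK2 shYY1, 0 and 3 in HK2 Dsh, 3 and 9 between the controls, 7 and 2 for the ACHN non-additive test, 4 and 0 for the Dsh effect between lines, and 0 lower for the HK2 non-additive test, since a size is asked as well. At that size and an adjusted p under 0.05, 11.4% of all genes were higher and 9.9% lower between the controls. The shares were 5.84% and 4.39% for the ACHN non-additive test, and 3.51% and 5.37% for the Dsh effect between lines. The member counts between the lines include members too low to measure in ACHN, with NEFH among the 4. SYP, which failed the filter in ACHN Dsh against shNC, is 1 of the 2 lower in the ACHN non-additive test. DESeq2 and scaling to total counts each called 1 member higher in ACHN shKDM5C. DESeq2 called 2 lower in HK2 shKDM5C, and 1 higher and 1 lower for the KDM5C effect between lines, as did no filter on low counts, with 1 lower by total counts. Over all genes DESeq2 called 807 instead of 214 in HK2 shKDM5C and 3101 instead of 2140 for the KDM5C effect between lines. With all 4 groups of HK2 in the fit, which brings in the library that stood apart, 1 member was lower in shKDM5C, 2 in shYY1 and 5 in Dsh; the cause was not tested.

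Leaving out 1 library at a time gave 0 to 4 members higher in ACHN shKDM5C (0 without shNC replicate 1), 0 to 1 higher and 0 to 3 lower in HK2 shKDM5C, 3 to 7 higher and 2 to 4 lower in the HK2 non-additive test (2 without shNC replicate 2), and 0 to 2 higher and 0 to 3 lower for the KDM5C effect between lines. The upper values in HK2 came without replicate 1 of shKDM5C. A fit with the replicate number as a block called 3 members higher and 6 lower in ACHN shKDM5C and 4 higher and 10 lower in HK2 Dsh. Over all genes it called 0 instead of 214 in HK2 shKDM5C and 957 instead of 2140 for the KDM5C effect between lines. Of 36 correlations between same-numbered libraries of a line, from -0.06 to 0.0363, 0 were above 0.1, so the numbers do not pair the libraries. Members at a few counts are limited by depth.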

Other observations

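RBFOX3, which encodes the neuronal splicing factor NeuN and is no member of the list, had 15 to 23 counts in ACHN shNC, 158 to 196 in shKDM5C, 147 to 154 in shYY1 and 6 to 13 in Dsh. It was 1 of 3 neuron markers that could be tested in ACHN, and the only one that rose in a single knockdown. With shKDM5C 2 of the 3 fell, with shYY1 1 fell, and in Dsh all 3 fell. In HK2 RBFOX3 had 0 to 6 counts. MAP2, a neuronal microtubule protein, was lower than in shNC in all 3 ACHN knockdown groups, at 7.32 ± 0.99 CPM in shNC, 2.83 ± 0.84 in shKDM5C, 5.17 ± 0.11 in shYY1 and 2.22 ± 0.31 in Dsh (SD, n = 3). In HK2 it was at 8.88 ± 1.43 CPM in shNC, 8.97 ± 3.01 in shKDM5C, 6.95 ± 1.05 in shYY1 and 7.33 ± 1.18 in Dsh, and did not pass in any knockdown comparison. Both genes were singled out after their values were seen.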
